A study of Mus musculus with 13 samples.

Results

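The genes described here encode the antioxidant and glutathione enzymes of mouse sciatic nerve, together with the transcription factor that controls many of them. They were chosen by symbol from a list of 41, of which 36 had a named probe set among the 15437 genes tested. Gpx4, Prdx5, Prdx6, Gstm2 and Gstp1 are not analysed here. RNA of whole sciatic nerve from BKS mice aged 24 weeks was amplified from 75 ng, labelled with biotin and measured on 1-colour arrays, giving 1 log2 expression level for each gene on each of 13 arrays. The tested group was db/db (n = 6 arrays, samples 110, 111, 112, 409, 410 and 411). Its mice are homozygous for the mutation of the leptin receptor gene Lepr that makes this strain obese and diabetic. The controls were db/+ (n = 7 arrays, samples 101, 103, 104, 105, 106, 404 and 407). These mice carry a single copy of the same mutation and are therefore not wild type. No treatment is named in the labels, which give both groups the same strain, tissue and age.

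Superoxide leaking from mitochondria or made by oxidases is turned into hydrogen peroxide by superoxide dismutases, and the peroxide is then removed by catalase, glutathione peroxidases and peroxiredoxins. Glutathione is made from glutamate, cysteine and glycine by glutamate-cysteine ligase and glutathione synthetase, is kept reduced by glutathione reductase at the expense of NADPH, and is joined to reactive molecules by glutathione transferases. The transcription factor NRF2, held in check by KEAP1, raises many of these genes through antioxidant response elements, and oxidative stress under high glucose is a long-studied theme in diabetic nerve.

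The db/+ arrays were not alike. A list of 13 neuronal genes averaged 6.81 to 7.45 (log2) over the db/db arrays, 7.49 to 8.60 on db/+ 105, 404 and 407 and 11.03 to 11.79 on db/+ 101, 103, 104 and 106. Every member was therefore compared over all 13 arrays and again with db/+ 105, 404 and 407 as the only controls, and these comparisons share all 6 db/db and 3 of the db/+ arrays. Lepr lay between 5.85 and 6.56 on the db/db arrays and between 6.78 and 8.98 on the db/+ arrays, without overlap. Array medians ran from 8.63 to 8.71, and precision is limited by how few arrays there are. The labels do not say that each array came from a separate animal, so the p-values measure the spread between these samples. In whole nerve, fewer cells of a type, less RNA per cell and a different mix of tissue in the sample cannot be told apart. What sets db/+ 101, 103, 104 and 106 apart from the other db/+ arrays was not tested. The comparison over all 13 arrays includes them.

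Of the 36 measured genes, 11 passed the test over all 13 arrays (limma, Benjamini-Hochberg adjusted p under 0.05 over 15437 genes), 9 with higher and 2 with lower levels in db/db nerve. Quantile normalization gave 9 higher and 4 lower members, median centring 10 and 1, and trend and robust moderation 9 and 5. Over all genes 25.1% passed, with 13.4% higher and 11.7% lower, against 30.6% of these members, so the share of members that passed lay near the background. Their median log2 difference, db/db minus db/+, was 0.11, beside 0.02 for all genes tested. Against db/+ 105, 404 and 407 alone, 9 members passed, 6 higher and 3 lower, which is 25.0% of the members against 12.9% of all genes. In that comparison 6.12% of all genes were higher and 6.78% were lower, and centring each array on its median moved the whole split of calls from 47.4% to 57.9% higher. The median member difference there was 0.04, beside -0.05 for all genes. Sod2, Sod3, Cat, Gss, Gsto1 and Mgst3 were higher and Gpx3 and Gpx8 lower in both comparisons. By family, the members that passed over all arrays were 2 of 3 superoxide dismutases, catalase, 2 of 4 glutathione peroxidases, 3 of 6 genes of the thioredoxin and glutaredoxin system, 1 of 5 of glutathione synthesis and recycling, 1 of 6 glutathione transferases and 1 of 2 microsomal transferases. In the peroxiredoxin and sulfiredoxin family 0 of 5 passed, and in the NRF2 group 0 of 4.

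**Figure D1:**
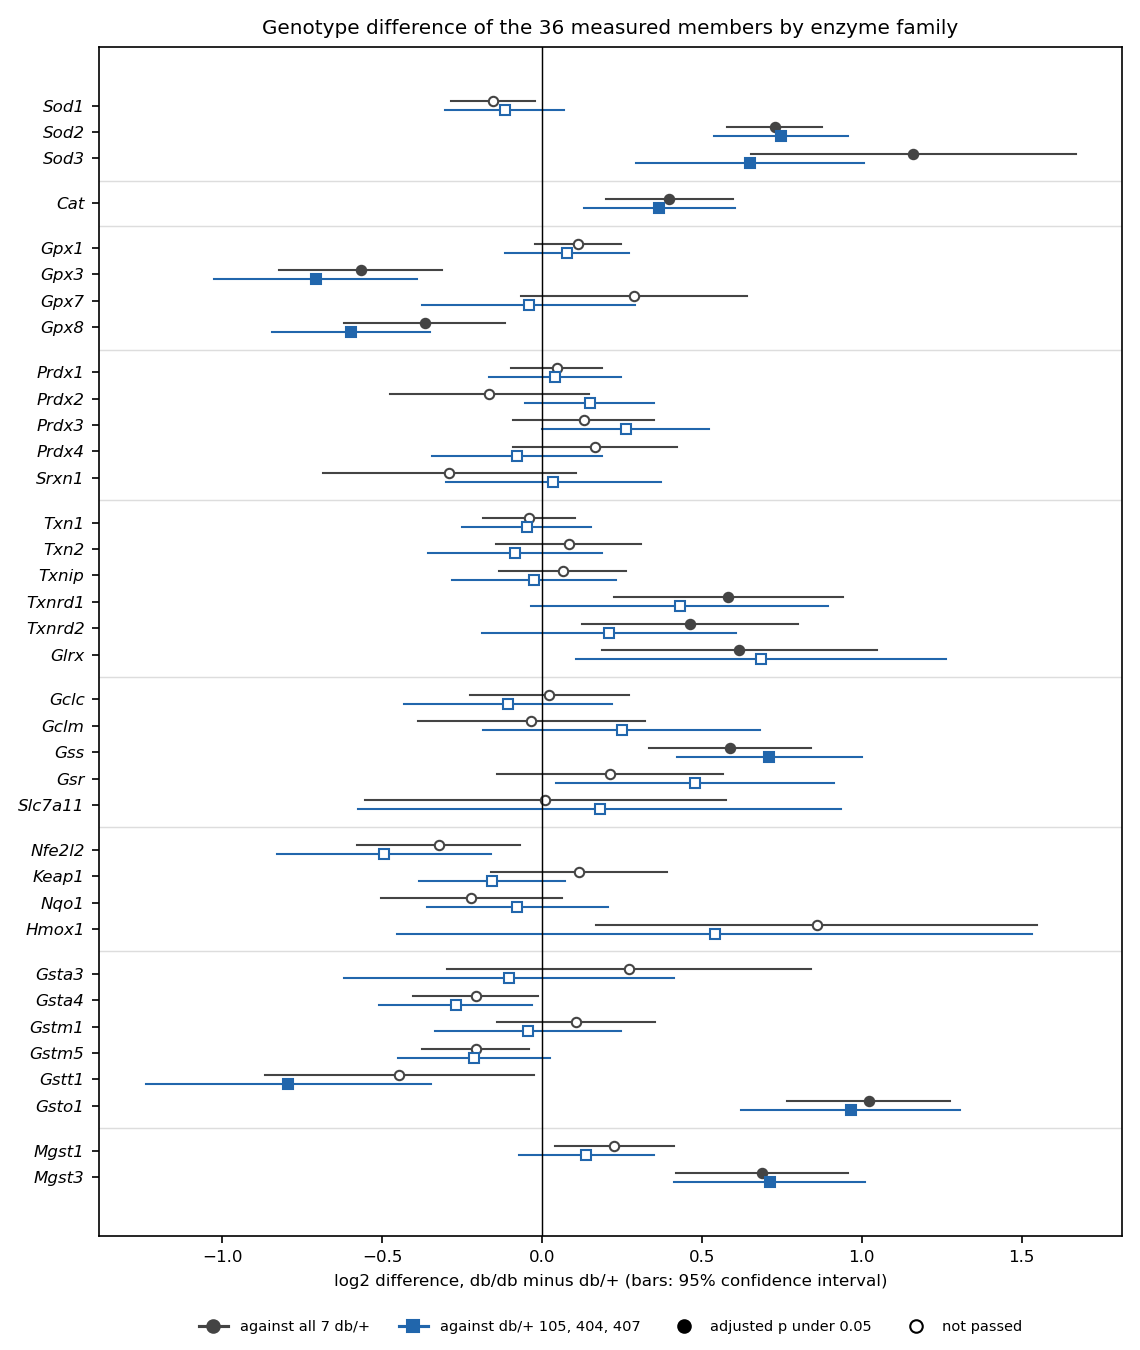
Log2 difference between db/db and db/+ nerve for each of the 36 measured members, grouped by enzyme family, against all 7 db/+ arrays (grey circles) and against db/+ 105, 404 and 407 (blue squares). Bars are 95% confidence intervals from limma and filled symbols passed the test. Sod3 (1.16) and Gsto1 (1.02) were the highest and Gpx3 (-0.57) the lowest over all arrays.

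The stretches of 100 bases before the transcription start are shown for 7 of the 8 members that passed in both comparisons, 5′ to 3′ on the gene's strand, from RefSeq promoter windows (GRCm38.p6). Capitals mark the GC box GGGCGG, the core of the site bound by SP1 family factors, wherever it reads, on either strand. Sod3 is named only.
Sod2 (chr17:13007739-13007838, plus strand): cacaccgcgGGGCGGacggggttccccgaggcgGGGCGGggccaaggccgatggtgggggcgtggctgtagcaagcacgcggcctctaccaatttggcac
Cat (chr2:103485154-103485253, minus strand): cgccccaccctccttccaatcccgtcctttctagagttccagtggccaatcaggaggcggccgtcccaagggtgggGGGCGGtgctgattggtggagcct
Gpx3 (chr11:54902754-54902853, plus strand): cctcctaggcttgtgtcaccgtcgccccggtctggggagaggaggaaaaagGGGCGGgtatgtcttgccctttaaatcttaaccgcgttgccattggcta
Gpx8 (chr13:113046389-113046488, minus strand): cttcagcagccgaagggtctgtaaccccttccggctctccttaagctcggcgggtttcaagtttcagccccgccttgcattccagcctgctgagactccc
Gss (chr2:155592811-155592910, minus strand): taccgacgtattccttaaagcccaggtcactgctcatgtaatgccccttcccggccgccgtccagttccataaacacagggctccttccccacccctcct
Gsto1 (chr19:47854873-47854972, plus strand): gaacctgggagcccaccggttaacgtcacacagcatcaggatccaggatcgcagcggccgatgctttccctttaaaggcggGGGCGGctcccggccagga
Mgst3 (chr1:167393842-167393941, minus strand): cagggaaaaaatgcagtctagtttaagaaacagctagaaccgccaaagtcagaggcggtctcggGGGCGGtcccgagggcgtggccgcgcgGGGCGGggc
Within these 100 bases Sod2 and Mgst3 held the box in 2 places, Cat, Gpx3 and Gsto1 held it once, and Gss and Gpx8 did not hold it. In the whole window, from 250 bases before to 50 after the start and on both strands, 28 of 35 listed genes with a window (80.0%) held it, against 49.2% of protein-coding genes and 38.2% of all genes with a window. Among members that passed in either comparison, 8 of 11 with a window held it. A match is only a run of letters and says nothing about binding in nerve.

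Of the 3 superoxide dismutases, Sod2 and Sod3 were higher in db/db nerve in both comparisons and Sod1 passed in neither. Sod2, the manganese enzyme of the mitochondrial matrix, had levels of 12.07, 12.18 and 12.32 (lowest, median and highest) in db/db nerve, against 11.36, 11.48 and 11.57 in db/+ nerve, and 11.42, 11.48 and 11.43 on db/+ 105, 404 and 407. All 6 db/db arrays lay above all 7 db/+ arrays, and db/+ 105, 404 and 407 lay inside the range of the other 4. Sod2 averaged 12.19 ± 0.10 in db/db and 11.46 ± 0.07 in db/+ nerve (SD, n = 6 and 7), 1.66-fold higher in db/db (log2 difference 0.73 ± 0.07 SE, adjusted p = 2.11e-05 by limma). Against the 3 db/+ arrays the log2 difference was 0.75 ± 0.09 (adjusted p = 0.00169).

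Sod3, the secreted dismutase that binds the extracellular matrix, had levels of 10.62, 10.97 and 11.20 in db/db nerve, against 9.15, 10.03 and 10.57 in db/+ nerve. The groups did not overlap, but the db/+ arrays divided: db/+ 105, 404 and 407 lay at 10.26, 10.10 and 10.57, and the other 4 lay at 9.15, 10.03, 9.28 and 9.21. The rise was 2.24-fold over all arrays (log2 difference 1.16 ± 0.24, adjusted p = 0.00397) and 1.57-fold against the 3 db/+ arrays (0.65 ± 0.16, adjusted p = 0.0275). The second call was lost when any of 5 arrays was left out, db/+ 105 or 404 or db/db 409, 410 or 411, with adjusted p up to 0.107.

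Sod1, the copper and zinc enzyme of the cytosol, did not pass in either comparison. It had 13.57, 13.62 and 13.69 in db/db nerve, against 13.66, 13.79 and 13.85 in db/+ nerve, and the single overlapping control was db/+ 407. Its log2 difference was -0.15 (95% interval -0.28 to -0.02, adjusted p = 0.0785) over all arrays and -0.12 (-0.30 to 0.07, adjusted p = 0.397) against the 3. With trend and robust moderation it passed over all arrays at an adjusted p of 0.00701.

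Cat encodes catalase, the peroxisomal enzyme that splits hydrogen peroxide into water and oxygen. Its levels were 12.30, 12.47 and 12.67 in db/db nerve, against 11.77, 12.08 and 12.25 in db/+ nerve, and 12.05, 12.25 and 12.05 on db/+ 105, 404 and 407. The groups did not overlap, with a gap narrower than the spread inside either group. Cat was 1.32-fold higher in db/db nerve (0.40 ± 0.09, adjusted p = 0.00773) over all arrays. Against the 3 db/+ arrays the difference was 0.37 at an adjusted p of 0.0499, a call lost on leaving out any of 8 of those 9 arrays, db/db 409 being the exception.

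**Figure D2:**
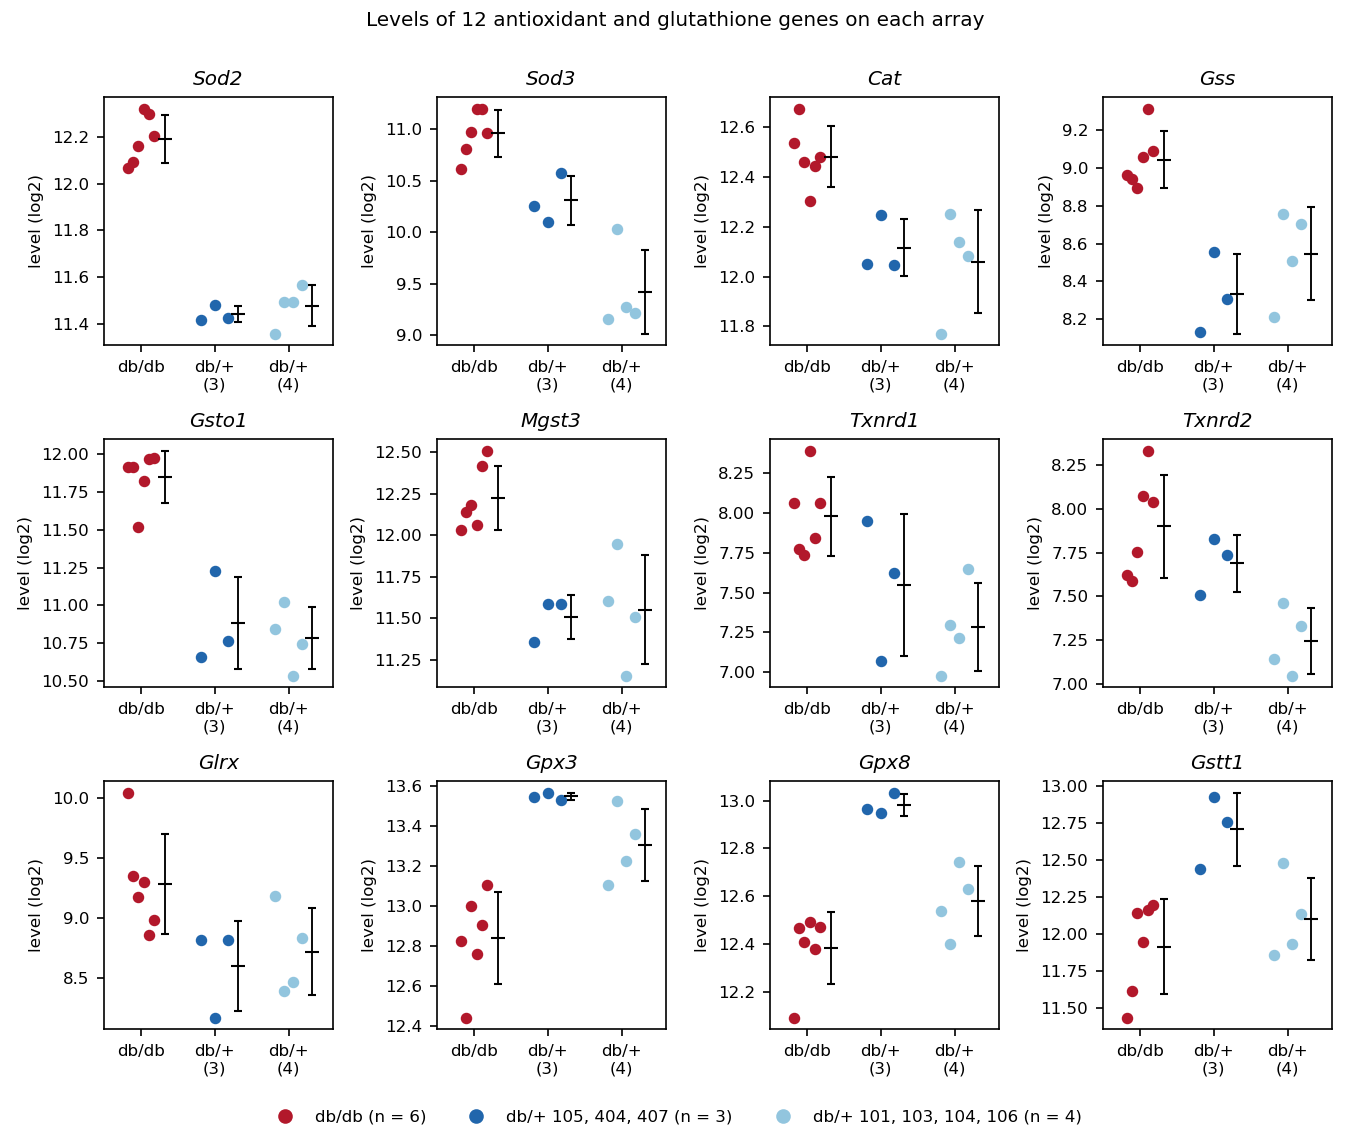
Log2 levels of the 12 members that passed in either comparison, on each array, for db/db, for db/+ 105, 404 and 407 and for db/+ 101, 103, 104 and 106. Bars show the mean and SD of each set, and axes do not start at 0. All db/db arrays lie above all db/+ arrays for Sod2, Sod3, Cat, Gss, Gsto1 and Mgst3 and below them for Gpx3.

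Of the 4 measured glutathione peroxidases among the listed members, 2 were lower in db/db nerve and 0 higher, in both comparisons. Gpx2, not a listed member, is given below with other peroxidases. Gpx3, the secreted enzyme found in plasma and extracellular fluid, had levels of 12.44, 12.87 and 13.11 in db/db nerve, against 13.11, 13.53 and 13.57 in db/+ nerve. The groups touched without overlapping, at db/db 411 and db/+ 101. On db/+ 105, 404 and 407 the levels were 13.55, 13.57 and 13.53, all close together and above the other 4 db/+ arrays. Gpx3 fell by 0.57 ± 0.12 on the log2 scale over all arrays (adjusted p = 0.0045) and by 0.71 ± 0.14 against the 3 (adjusted p = 0.012).

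Gpx8, a membrane enzyme of the endoplasmic reticulum, had levels of 12.09, 12.44 and 12.49 in db/db nerve, against 12.40, 12.74 and 13.03 in db/+ nerve. Over all arrays the groups overlapped and the fall was 0.37 ± 0.12 (adjusted p = 0.0371), a call lost when any of 9 of the 13 arrays was left out. Against db/+ 105, 404 and 407, at 12.96, 12.95 and 13.03, all db/db arrays were lower. There Gpx8 fell by 0.60 ± 0.11 (adjusted p = 0.00833), and the call held with each of the 9 arrays left out in turn, adjusted p 0.00717 to 0.0372.

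Gpx1, the main cytosolic and mitochondrial enzyme, and Gpx7, another enzyme of the endoplasmic reticulum, did not pass. Gpx1 differed by 0.11 over all arrays (adjusted p = 0.204) and by 0.08 against the 3 (adjusted p = 0.607). Gpx7 differed by 0.29 (adjusted p = 0.216) and by -0.04 (adjusted p = 0.891), and its db/+ levels were 11.81 to 12.33 on db/+ 105, 404 and 407 and 11.30 to 11.81 on the other 4.

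Peroxiredoxins reduce peroxides with a reactive cysteine, and sulfiredoxin, the product of Srxn1, repairs that cysteine after overoxidation. Of the 5 measured genes 0 passed in either comparison (limma), and at an unadjusted p under 0.05 the counts were 0 over all arrays and 1 against the 3. Their log2 differences lay between -0.29 and 0.17 over all arrays and between -0.08 and 0.26 against the 3. Prdx3, the mitochondrial peroxiredoxin, had 11.95, 12.18 and 12.36 in db/db nerve, against 11.77, 12.02 and 12.27 in db/+ nerve. The groups overlapped in part, with db/db 110 and 112 above every db/+ array and db/+ 101, 404 and 407 below every db/db array. Prdx3 differed by 0.26 (adjusted p = 0.176) against db/+ 105, 404 and 407, which lay at 12.02, 11.77 and 11.91. Srxn1 had 10.31, 10.66 and 10.86 in db/db nerve, against 10.44, 10.87 and 11.64 in db/+ nerve. On db/+ 105, 404 and 407 Srxn1 lay at 10.54, 10.44 and 10.87, in or just above the db/db range, and on the other 4 at 11.64, 11.31, 10.74 and 11.06.

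Thioredoxin reductases pass electrons from NADPH to thioredoxin, and both passed over all arrays. Txnrd1, the cytosolic enzyme, had 7.74, 7.95 and 8.39 in db/db nerve, against 6.97, 7.29 and 7.95 in db/+ nerve, where db/+ 105 reached the middle of the db/db range. Txnrd1 was higher in db/db nerve by 0.58 ± 0.17 (adjusted p = 0.0231), and the call was lost without db/db 409 (adjusted p = 0.0539). Against db/+ 105, 404 and 407, at 7.95, 7.07 and 7.62, the difference was 0.43 (adjusted p = 0.209).

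Txnrd2, the mitochondrial reductase, had 7.59, 7.89 and 8.33 in db/db nerve, against 7.05, 7.46 and 7.83 in db/+ nerve. It was higher by 0.46 ± 0.16 (adjusted p = 0.0455), a call lost when any of 9 arrays was left out. On db/+ 105, 404 and 407 the levels were 7.51, 7.83 and 7.73, inside the db/db range but for db/+ 105, and the difference was 0.21 (adjusted p = 0.485).

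Glrx encodes glutaredoxin, which removes glutathione from protein cysteines. It had 8.86, 9.24 and 10.04 in db/db nerve, against 8.17, 8.82 and 9.18 in db/+ nerve, with db/db 110 far above the rest. Glrx was higher by 0.62 ± 0.20 over all arrays (adjusted p = 0.0386), a call lost when any of 8 arrays was left out. Against the 3 db/+ arrays, at 8.82, 8.17 and 8.82, the groups did not overlap and the difference of 0.69 had an adjusted p of 0.115. Txn1 and Txn2, the cytosolic and mitochondrial thioredoxins, and Txnip, which binds and inhibits thioredoxin and responds to glucose, differed by -0.04 to 0.08 over all arrays, and 0 of the 3 passed in either comparison.

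In glutathione synthesis and recycling 1 of 5 genes passed, the same gene in both comparisons. Gss, glutathione synthetase, the second enzyme of synthesis, had 8.89, 9.01 and 9.31 in db/db nerve, against 8.13, 8.51 and 8.76 in db/+ nerve. All db/db arrays lay above all db/+ arrays, and db/+ 105, 404 and 407 lay at 8.13, 8.55 and 8.31. Gss averaged 9.04 ± 0.15 in db/db and 8.45 ± 0.24 in db/+ nerve, 1.504-fold higher (0.59 ± 0.12, adjusted p = 0.00361), and 0.71 ± 0.13 higher than the 3 (adjusted p = 0.00785).

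The first and limiting step of synthesis belongs to glutamate-cysteine ligase, whose catalytic and modifier subunits are Gclc and Gclm. Gclc differed by 0.02 (95% interval -0.23 to 0.27) over all arrays and by -0.11 (-0.43 to 0.22) against the 3. Gclm differed by -0.03 (adjusted p = 0.905) and 0.25 (adjusted p = 0.444), and its db/+ arrays lay at 9.15 to 9.86 for db/+ 105, 404 and 407 and at 9.87 to 10.01 for the other 4. Gsr, glutathione reductase, differed by 0.21 (adjusted p = 0.364) and 0.48 (adjusted p = 0.141). Slc7a11, the cystine transporter, lay at 3.88 to 5.39 in db/db and 4.07 to 5.09 in db/+ nerve, and the values carry no detection calls.

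The NRF2 group held 0 genes that passed in either comparison, with 2 of 4 at an unadjusted p under 0.05 over all arrays and 1 of 4 against the 3. Nfe2l2, which encodes NRF2, had 11.15, 11.49 and 11.78 in db/db nerve, against 11.66, 11.74 and 12.03 in db/+ nerve. Against db/+ 105, 404 and 407, at 12.03, 11.99 and 11.98, all 6 db/db arrays were lower. The differences were -0.32 (adjusted p = 0.0606) and -0.49 (adjusted p = 0.0583), and 4 of the 6 alternative settings for the second comparison brought it under the threshold, with adjusted p 0.013 to 0.0466.

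Hmox1, haem oxygenase 1, had 11.96, 12.53 and 13.21 in db/db nerve, against 10.94, 11.51 and 13.15 in db/+ nerve. A single control, db/+ 407, lay at the top of the db/db range, and db/+ 404 was the lowest of all 13. Hmox1 differed by 0.86 (limma, adjusted p = 0.065) over all arrays and by 0.54 (adjusted p = 0.473) against the 3. Over all arrays with 1 left out in turn, the difference ran from 0.72 to 1.09, with adjusted p 0.006 to 0.132. It passed only without db/+ 407. Keap1 and Nqo1, the sensor that holds NRF2 and a quinone reductase that NRF2 raises, differed by 0.12 and -0.22 over all arrays, with adjusted p of 0.533 and 0.236.

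The core of the antioxidant response element, TGACNNNGC, was sought in the same RefSeq windows on both strands, because it is the sequence through which NRF2 acts on this pathway. It was found for 9 of 35 listed genes with a window (25.7%), against 14.8% of protein-coding genes and 14.0% of all genes with a window. The matches before the start site are shown with flanking bases on the gene's strand, GRCm38.p6, with the element in capitals. Those of Gsta3, Nfe2l2 and Gstm5 read on the gene's own strand and the others on the opposite strand, where the capitals show the reverse complement.
Sod1 (chr16:90220690-90220730, plus strand): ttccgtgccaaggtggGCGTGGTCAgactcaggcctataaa
Prdx1 (chr4:116685450-116685490, plus strand): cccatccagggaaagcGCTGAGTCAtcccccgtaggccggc
Txnrd1 (chr10:82859098-82859138, plus strand): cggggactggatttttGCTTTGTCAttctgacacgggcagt
Gclm (chr3:122245407-122245447, plus strand): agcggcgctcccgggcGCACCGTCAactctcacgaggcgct
Nfe2l2 (chr2:75704879-75704913, minus strand): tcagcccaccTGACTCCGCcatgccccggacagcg
Gsta3 (chr1:21240448-21240488, plus strand): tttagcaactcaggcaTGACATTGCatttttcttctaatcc
Gstm5 (chr3:107895796-107895836, plus strand): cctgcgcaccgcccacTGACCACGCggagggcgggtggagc
Mgst1 (chr6:138140455-138140495, plus strand): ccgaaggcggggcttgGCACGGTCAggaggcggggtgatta
The first base of the match lay 56 bases before the start in Sod1 and Mgst1, 92 in Txnrd1, 133 in Prdx1, 134 in Gclm, 42 in Gstm5, 121 in Gsta3 and 240 in Nfe2l2, and the match in Srxn1 lay after its start. Of the 11 members with a window that passed in either comparison, 1 held the element, Txnrd1. Of these 9 genes, Txnrd1 alone passed over all arrays, and 0 passed against the 3 db/+ arrays. Of all genes 25.1% and 12.9% passed, and 9 genes are too few to set against those shares. The absence of these letters from a window draws no line between genes that NRF2 does and does not act on.

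Of the 6 measured glutathione transferases among the listed members, 1 passed over all arrays, Gsto1, and 2 passed against the 3, Gsto1 and Gstt1. Transferases outside the list are counted below. Gsto1 encodes an omega class enzyme with thiol transferase and dehydroascorbate reductase activity. Its levels were 11.52, 11.91 and 11.97 in db/db nerve, against 10.53, 10.76 and 11.23 in db/+ nerve, without overlap. On db/+ 105, 404 and 407 it lay at 10.66, 11.23 and 10.76, and on the other 4 at 10.84, 11.02, 10.53 and 10.75, and the ranges of both sets of controls overlapped. Gsto1 averaged 11.85 ± 0.17 in db/db and 10.83 ± 0.23 in db/+ nerve, 2.03-fold higher (1.02 ± 0.12, adjusted p = 8.78e-05). Against the 3 the log2 difference was 0.96 ± 0.15 (adjusted p = 0.00442).

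Gstt1, a theta class enzyme, passed only against db/+ 105, 404 and 407, and the difference between the comparisons was not tested. It had 11.43, 12.04 and 12.19 in db/db nerve, against 12.44, 12.93 and 12.75 on those arrays and 11.86, 12.48, 11.93 and 12.13 on the other 4. Gstt1 fell by 0.79 ± 0.20 against the 3 (adjusted p = 0.0301), a call lost without db/+ 404 or 407 or db/db 111 or 409, and differed by -0.45 (adjusted p = 0.11) over all arrays. The alpha class genes Gsta3 and Gsta4 and the mu class genes Gstm1 and Gstm5 differed by -0.21 to 0.27 over all arrays, and 0 of the 4 passed in either comparison. Gsta4, which acts on the lipid peroxidation product 4-hydroxynonenal, lay below db/+ 105, 404 and 407 on all 6 db/db arrays (13.03 to 13.32 in db/db), at an adjusted p of 0.13. The groups nearly touched, at 13.319 on db/db 410 and 13.324 on db/+ 407.

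Microsomal glutathione transferases sit in membranes and belong to a separate protein family. Mgst3, which also reduces lipid peroxides, had 12.03, 12.16 and 12.51 in db/db nerve, against 11.15, 11.59 and 11.95 in db/+ nerve. The groups did not overlap, and db/+ 105, 404 and 407 lay at 11.36, 11.59 and 11.59. Mgst3 was 1.61-fold higher over all arrays (0.69 ± 0.13, adjusted p = 0.00206) and higher by 0.71 ± 0.13 against the 3 (adjusted p = 0.00895). Mgst1 differed by 0.23 (adjusted p = 0.0707) and 0.14 (adjusted p = 0.374).

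Groups that do not overlap are a description that needs its background. Over all arrays 7 members did not overlap, 6 with db/db higher and 1 with db/db lower. Of all genes 9.68% did not overlap, 6.17% with db/db higher and 3.51% lower. Against the 3 db/+ arrays 12 members did not overlap, 7 with db/db higher and 5 lower. The background there was 19.0%, with 8.98% higher and 9.99% lower. Sod2, Sod3, Cat, Gpx3, Gss, Gsto1 and Mgst3 were in both sets, and Gpx8, Glrx, Nfe2l2, Gsta4 and Gstt1 were added with the smaller control set.

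**Figure D3:**
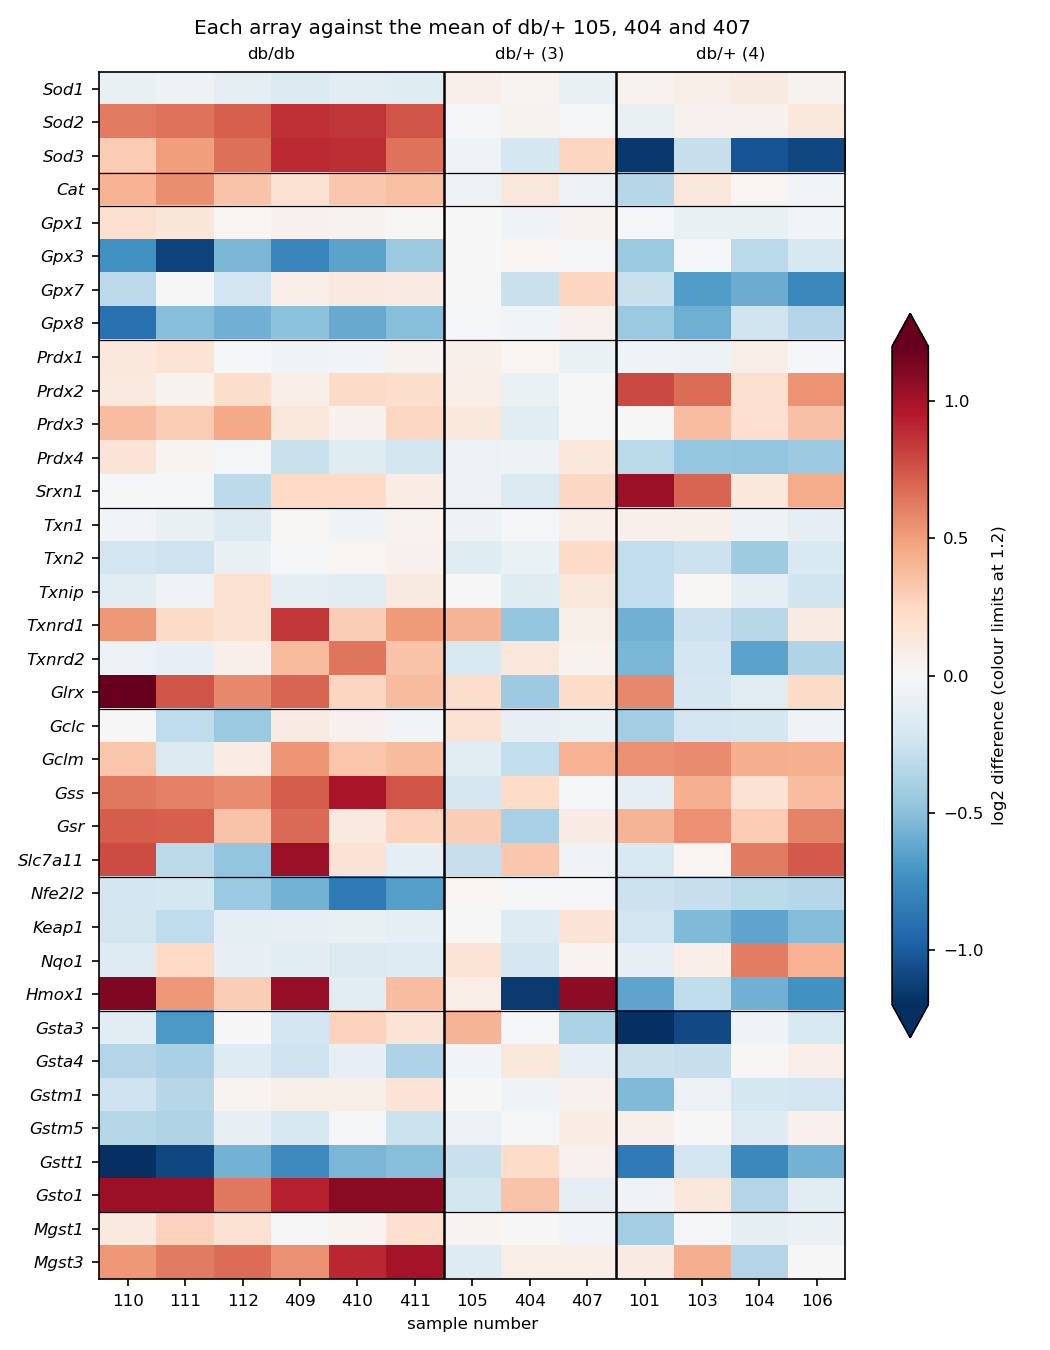
Level of each measured member on each array minus the mean of db/+ 105, 404 and 407 (log2), with db/db arrays at the left, those 3 db/+ arrays in the middle and db/+ 101, 103, 104 and 106 at the right. Colours stop at 1.2. Sod2, Gsto1 and Mgst3 are high on all 6 db/db arrays, and Prdx2 and Srxn1 are highest on db/+ 101, at 12.57 and 11.64 on the log2 scale.

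Among the controls themselves, members differed about as often as all genes did. Between db/+ 101, 103, 104 and 106 and db/+ 105, 404 and 407, 13 of 36 members did not overlap. That share lay near the 33.1% of all genes that did not overlap. Gclm, Gsr and Prdx2, the last a cytosolic peroxiredoxin abundant in neurons and red cells, were higher on the 4, by 0.49, 0.46 and 0.55. The other 10 were lower on the 4, with differences of -0.89 for Sod3, -0.58 for Gpx7, -0.48 for Keap1, -0.44 for Txnrd2, -0.43 for Prdx4, -0.40 for Gpx8, -0.30 for Nfe2l2, -0.29 for Txn2, -0.26 for Gstm1 and -0.25 for Gpx3. These sets were divided by a measured list and carry no test. Sod2, Cat, Gss, Gsto1 and Mgst3 were not among the 13.

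Marker lists of other cells in the nerve differed between genotypes or between the sets of controls. Of all genes, 25.1% passed over all arrays and 12.9% against the 3. The mean of 9 adipocyte genes lay at 12.85 to 12.97 in db/db nerve, against 12.17 to 12.60 on db/+ 105, 404 and 407 and 11.61 to 12.49 on the other 4, with 6 of the 9 higher over all arrays and 3 against the 3. The mean of 8 fibroblast genes lay at 12.15 to 12.46 in db/db nerve, against 12.88 to 12.92 and 12.49 to 12.76, with 3 of the 8 lower in each comparison. For both lists db/db did not overlap db/+, as for Sod2, Sod3, Cat, Gss, Gsto1 and Mgst3 above and Gpx3 below the controls. Of all genes 6.17% lay above and 3.51% below without overlap. Whether these members belong to the cells of these lists was not tested. The mean of 11 macrophage genes overlapped, at 10.48 to 11.26 in db/db nerve, against 10.42 to 11.31 and 10.10 to 10.28, and its highest db/+ array was 407, as for Hmox1. Neuronal means were lower in db/db nerve than on any db/+ array, with 11 of 13 genes lower over all arrays and 4 against the 3. The mean of 9 Schwann cell and myelin genes lay at 9.24 to 10.62 in db/db nerve, against 10.20 to 10.90 and 10.75 to 11.37. Of these 9, 6 were lower over all arrays and 0 passed against the 3 (limma, with 4 at an unadjusted p under 0.05). The mean of 6 neutrophil genes lay at 8.15 to 10.41 in db/db nerve, against 7.34 to 9.65 and 7.08 to 8.50, with S100a8 and Mmp8 higher over all arrays and S100a8 against the 3. The mean of 8 endothelial genes lay at 9.57 to 9.76 in db/db nerve, against 9.38 to 9.87 and 9.57 to 9.85, with Cdh5, Flt1 and Esam higher and Tek lower over all arrays, and Esam higher and Tek lower against the 3. The mean of 9 skeletal muscle genes lay at 6.84 to 11.79 in db/db nerve, against 8.42 to 11.48 and 7.39 to 12.21, and that of 3 erythroid genes at 5.79 to 9.10, against 6.34 to 7.65 and 5.50 to 8.16, with 0 members passing in either list and comparison (limma; 1 muscle gene had an unadjusted p under 0.05 over all arrays). The 3′ minus 5′ signal of the actin control, a sign of RNA quality, was 0.49 to 0.92 in db/db, against 0.40 to 1.14 and 0.96 to 1.40. The part of these lists and of RNA quality in the results above was not tested.

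**Figure D4:**
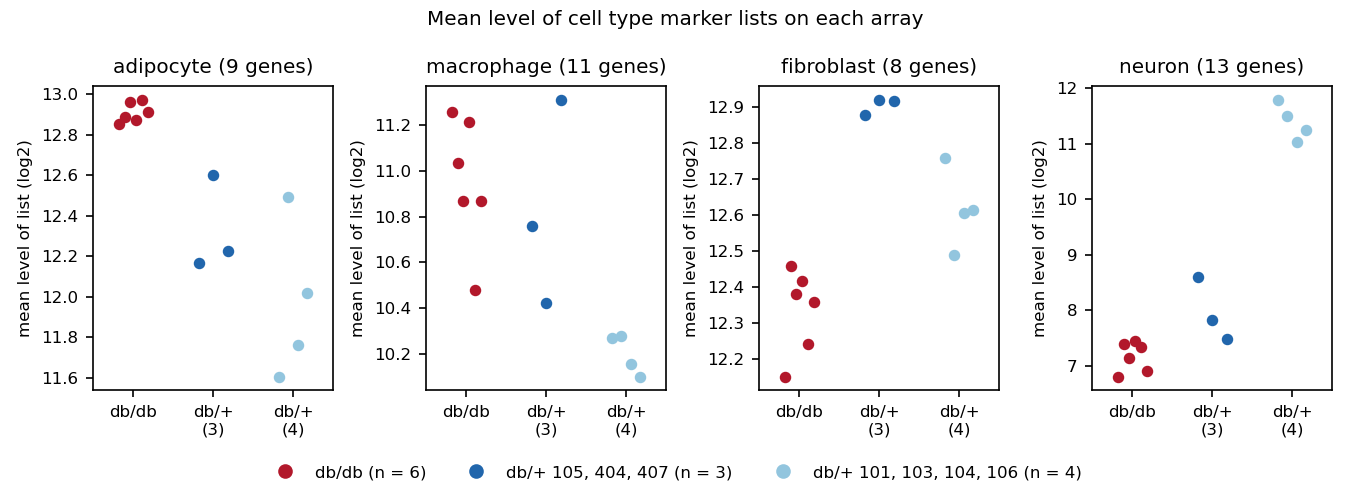
Mean log2 level of the adipocyte, macrophage, fibroblast and neuron marker lists on each array, for db/db, db/+ 105, 404 and 407 and db/+ 101, 103, 104 and 106. Axes do not start at 0. Adipocyte means are above and fibroblast means below every db/+ array in db/db nerve, and neuronal means divide the db/+ arrays, 7.49 to 8.60 against 11.03 to 11.79.

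The sample numbers form a series from 101 to 112 (3 db/db and 5 db/+ arrays) and another from 404 to 411 (3 db/db and 2 db/+ arrays), and what they mark is not stated. Within 101 to 112, Sod2 differed by 0.64 (adjusted p = 0.00565) and Gsto1 by 1.02 (adjusted p = 0.00685). Within 404 to 411, Sod2 differed by 0.82 (adjusted p = 0.0192) and Gsto1 by 0.92 (adjusted p = 0.0391). These were the 2 members that passed over all arrays and in both series. Gss passed within 404 to 411 (0.72, adjusted p = 0.0448) and differed by 0.47 within 101 to 112 (adjusted p = 0.0805). Sod3, Cat, Gpx3 and Mgst3 passed within 101 to 112 and had adjusted p of 0.0612, 0.245, 0.0558 and 0.0562 within 404 to 411, with the same direction. Gpx8 differed by -0.33 (adjusted p = 0.162) within 101 to 112 and -0.54 (adjusted p = 0.0433) within 404 to 411. Of members that did not pass over all arrays, Hmox1 (1.08, adjusted p = 0.0231) and Prdx4 (0.41, adjusted p = 0.0487) passed within 101 to 112, and Nfe2l2 (-0.68, adjusted p = 0.0389) and Gstt1 (-0.74, adjusted p = 0.0359) within 404 to 411.

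A test of the difference in genotype effect between the series (limma interaction) called 0 of 15437 genes after adjustment. Of all genes 15.3% had an unadjusted p under 0.05, and 3 of the 36 members did, a smaller share. Prdx4, the peroxiredoxin of the endoplasmic reticulum, had 12.49, 12.37 and 12.31 on db/db 110, 111 and 112, against 11.86 to 12.26 on the db/+ arrays of that series. In the other series it had 12.06, 12.19 and 12.11 on db/db 409, 410 and 411, against 12.28 and 12.46 on db/+ 404 and 407. The db/db arrays were thus all above their controls in one series and all below them in the other, with a difference of -0.66 (unadjusted p = 0.00271, adjusted p = 0.232). Prdx4 was the only member with this pattern, and how often all genes show it was not counted. Nfe2l2 differed by -0.06 and -0.68 in the series (difference -0.62, adjusted p = 0.243), and Prdx2 by -0.33 and 0.22 (difference 0.55, adjusted p = 0.318). The lower series held 4 of its 5 controls from the set with high neuronal means and the higher series none, so number series and control set cannot be told apart here.

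**Figure D5:**
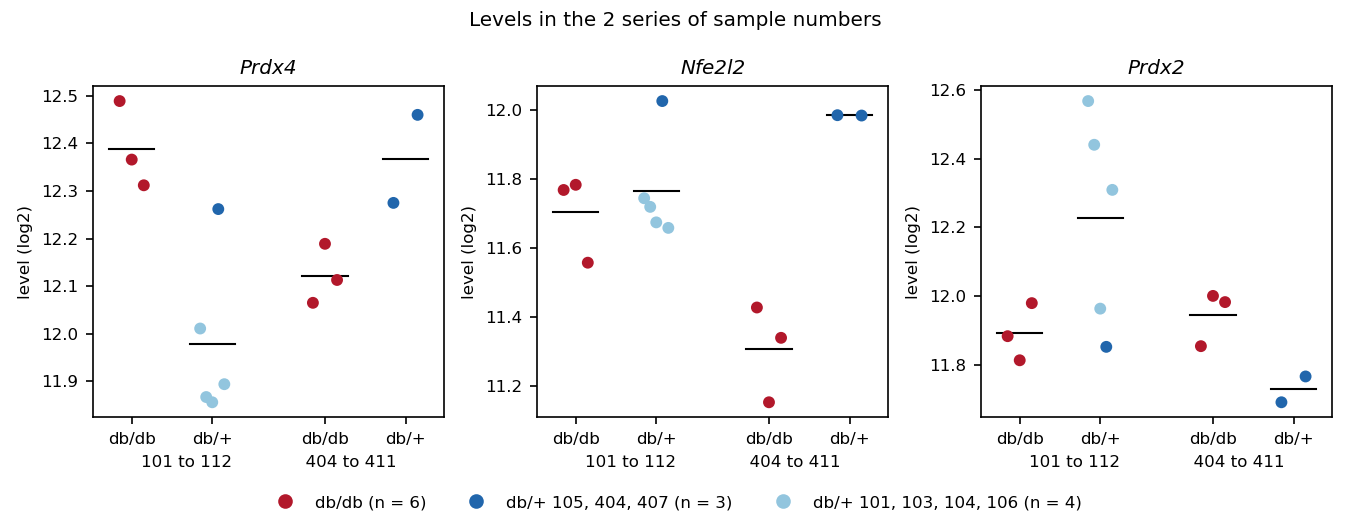
Log2 levels of Prdx4, Nfe2l2 and Prdx2 on each array, by genotype within sample numbers 101 to 112 and 404 to 411. Horizontal bars are means, colours mark the 2 sets of db/+ arrays, and axes do not start at 0. For Prdx4 the mean difference is 0.41 in the lower and -0.25 in the higher series.

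Other genes of the same pathways, taken from lists by function, were counted beside the same background of 25.1% over all arrays and 12.9% against the 3. Of 11 genes of glutathione synthesis, breakdown and precursor supply, 3 were higher and 1 lower over all arrays, and 1 and 1 against the 3. The gene lower against the 3 was Dpep1 (-0.74, adjusted p = 0.0346 by limma), which did not pass over all arrays. Cth, which makes cysteine from cystathionine, was higher by 1.41 ± 0.33 (adjusted p = 0.00843) and by 1.14 ± 0.28 against the 3 (adjusted p = 0.029). Slc3a2, the heavy chain partner of the cystine transporter, was higher by 0.35 (adjusted p = 0.00836) and differed by 0.29 (adjusted p = 0.104) against the 3. Ggt7, of the gamma-glutamyltransferase family, fell by 1.93 (adjusted p = 0.0272) and differed by -0.44 (adjusted p = 0.369) against the 3.

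Of 19 other peroxidases, transferases and glutaredoxins, 5 were higher and 1 lower over all arrays, and 1 and 3 against the 3. The 3 lower were Gpx2, Gstt3 (-0.93, adjusted p = 0.00384 by limma) and Ptges (-0.68, adjusted p = 0.00684). Gstt3 and Ptges did not pass over all arrays. Glrx5, a mitochondrial glutaredoxin of iron-sulphur cluster assembly, was higher by 0.80 ± 0.14 (adjusted p = 0.0013) and 0.66 (adjusted p = 0.0424). Ltc4s, which joins glutathione to leukotriene A4 in myeloid cells, was higher by 1.42 (adjusted p = 0.0104) and differed by 1.01 (adjusted p = 0.117) against the 3. Gpx2, best known from gut epithelium, fell by 1.08 (adjusted p = 0.00577) and 0.58 (adjusted p = 0.0472), at 5.16 in db/db and 6.24 in db/+ nerve.

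NADPH feeds both reductases. Of 7 genes of its supply 2 were higher over all arrays and 1 against the 3, with 0 lower. Pgd, the second NADPH-making enzyme of the pentose phosphate pathway, was higher by 0.79 ± 0.11 (adjusted p = 0.000272) and by 0.62 ± 0.08 (adjusted p = 0.00199). Taldo1, transaldolase of the same pathway, was higher by 0.35 (adjusted p = 0.036) and differed by 0.17 (adjusted p = 0.331), and Me1, malic enzyme, which is abundant in fat, differed by 0.38 (adjusted p = 0.11) and 0.40 (adjusted p = 0.0555).

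Of 11 other regulators and partners of NRF2, 3 were higher over all arrays and 0 passed against the 3 (limma). Pgam5, a mitochondrial phosphatase that binds KEAP1, was higher by 0.42 (adjusted p = 0.00768), Cul3, the scaffold of the ligase that marks NRF2 for destruction, by 0.22 (adjusted p = 0.0267) and Maff, a small MAF partner, by 1.08 (adjusted p = 0.0445). Of 13 other detoxifying targets of NRF2, 1 was higher over all arrays, and 1 was higher and 1 lower against the 3. The lower gene was Ugdh (-0.40, adjusted p = 0.046 by limma), which did not pass over all arrays. Abcc3, an exporter of glutathione and glucuronide conjugates, was higher by 1.53 ± 0.20 (adjusted p = 0.000186) and 1.42 ± 0.27 (adjusted p = 0.0105). Abcc1, a related exporter, and Akr1b10, an aldo-keto reductase, differed by 0.40 and 0.42, with adjusted p of 0.0635 and 0.0668. Of 7 genes of haem and iron handling, Blvra, biliverdin reductase, which acts after haem oxygenase, was higher by 1.05 ± 0.13 (adjusted p = 0.000124) and 0.82 ± 0.12 (adjusted p = 0.00284), and the other 6, Tfrc and Slc40a1 among them, did not pass.

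Of 7 metallothioneins and methionine sulphoxide reductases, 4 were higher and 1 lower over all arrays, and 1 was higher against the 3. Msra, which repairs oxidised methionine, was higher by 0.88 ± 0.10 (adjusted p = 6.85e-05) and 0.70 ± 0.10 (adjusted p = 0.00309). Msrb3 and Msrb1, which act on the other stereoisomer, were higher by 0.32 and 0.50 over all arrays (adjusted p = 0.0181 and 0.0237) and had adjusted p of 0.17 and 0.356 against the 3. Of 13 sestrins and other redox proteins, 3 were higher and 1 lower over all arrays, and 2 and 2 against the 3, Txndc5 and Nxn being lower there. Pon2, an intracellular lactonase, was higher by 0.67 ± 0.08 (adjusted p = 0.000138) and 0.56 ± 0.10 (adjusted p = 0.00808), Sesn2, a stress-induced sestrin, by 1.29 and 0.77 (adjusted p = 0.00206 and 0.0428), and Nxn, nucleoredoxin, fell by 0.68 and 0.61 (adjusted p = 0.00169 and 0.0109).

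Of 16 enzymes that produce oxidants, 1 was higher and 1 lower over all arrays. Against the 3, 1 was higher, Maoa, and 3 were lower, Nox4, Mpo and Maob. Cybb, the catalytic subunit of the phagocyte NADPH oxidase, was higher by 1.0 ± 0.28 (adjusted p = 0.0193) and differed by 0.70 (adjusted p = 0.239) against the 3. Of the 11 macrophage markers, 3 were higher over all arrays and 0 against the 3 (limma, with 1 of 11 at an unadjusted p under 0.05), and the part of macrophages in the Cybb values was not tested. Noxo1, an oxidase organiser, fell by 0.50 (adjusted p = 0.0325) and differed by -0.52 (adjusted p = 0.13) against the 3. Maoa, monoamine oxidase A of the outer mitochondrial membrane, differed by 0.47 (adjusted p = 0.0731) over all arrays and was higher by 0.90 ± 0.12 against the 3 (adjusted p = 0.00176).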

How the data were processed

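Per the submitters' processing notes, the authors deposited log2 levels computed by RMA. These entered the tests unchanged. RMA subtracts background, scales the arrays to a common distribution and compresses the folds of dim genes. Its version is not given in the sources used. Of 15479 probe sets, 42 controls were left out and 15437 were tested. GEO's platform annotation paired 14801 with 1 gene symbol and 636 with none. Genotype was tested two-sided in R 4.3.3 (limma 3.58.1, lmFit then eBayes). P-values were adjusted by Benjamini and Hochberg's method across the 15437 genes and called under 0.05, once with all 13 arrays and once with db/+ 105, 404 and 407 as controls. SDs are between arrays, and standard errors and 95% intervals come from limma. Lists have counts and medians and no test. Members and lists were chosen with earlier results of these data known. Values per array are given for members that passed in either comparison and for those with the smallest p in each family. From each pathway list the 3 genes with the smallest p over all arrays are named, as are the genes that passed against the 3. Tested on simulated data for 15437 genes, the fit over all arrays found 77% of log2 changes of 1 and 98% of log2 changes of 2, and 9 of its 184 calls were false. Against the 3 db/+ arrays it found 56% and 92%, and 5 of 153 calls were false. The simulation drew noise independently for each gene, with the same spread in both genotypes, and changed 100 genes by each size. On the real arrays 25.1% of genes passed over all 13 and the db/+ arrays divided. The simulated rates therefore need not hold for them. Alternatives were trend and robust moderation, quantile normalization, median centring, leaving out the dimmest 25%, weighting of arrays, blocking on the number series, each series alone, and leaving out each array. Promoter windows came from a RefSeq table (GRCm38.p6). Python 3.11.15 with pandas 2.3.3, numpy 2.4.6 and matplotlib 3.10.9 served for the rest.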

Additional observations from a re-analysis of the deposited data

Results flagged for a closer look

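In 6 of 72 groups of arrays, 1 sample lay far from the others for a member gene; chance gives such a sample in about 1 in 20 groups. Gsto1 on db/db 112 was at 11.519, the lowest of its group, where the other db/db arrays were at 11.818 to 11.971. Gpx8 on db/db 110 was at 12.091, with the others at 12.379 to 12.491. Nqo1 on db/db 111 was at 10.627, with the others at 10.213 to 10.286. Among db/+ arrays, Sod1 was at 13.657 on 407, against 13.776 to 13.852 on the others. On db/+ 101, Cat was at 11.769, against 12.048 to 12.251, and Mgst1 at 12.344, against 12.655 to 12.789. The genotype difference of Prdx4 was 0.411 within sample numbers 101 to 112 and -0.245 within 404 to 411, all db/db arrays lying above their controls in the first series and below them in the second. How often all genes do so was not counted. The difference between the series was -0.656, with an unadjusted p of 0.00271 and an adjusted p of 0.232 by limma's interaction term over 15437 genes.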

How the results depend on the processing

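Of 755 values of members recomputed over all arrays under 21 alternatives, 42 lost their call, 25 gained one and 26 changed sign, 0 of these last in a called member; of 539 values against the 3 db/+ arrays under 15 alternatives, 19 lost, 6 gained and 20 changed sign, again 0 in a called member. Sod2 and Gsto1 passed under all alternatives over all arrays, and Sod2, Gpx3, Gpx8, Gss, Gsto1 and Mgst3 under all alternatives against the 3. Array weights gave 6525 genes and 17 members over all arrays, and samples 404 to 411 alone, with fewer arrays, gave 1404 and 6. Leaving out 1 array gave 2893 to 4529 genes and 7 to 12 members over all arrays, the 7 without db/db 409. Against the 3 it gave 1164 to 1749 genes and 6 to 9 members, and the counts without db/+ 404 and 407 were 1166 and 1164. Where members that had not passed changed sign, the cause was not tested. Within 404 to 411 these were Prdx2 0.22, Prdx4 -0.245, Srxn1 0.15, Txn2 -0.05, Txnip -0.046, Gclm 0.35 and Keap1 -0.099; within 101 to 112, Gclc -0.107 and Slc7a11 -0.183; with the number series as a block, Gclc -0.014 and Slc7a11 -0.025; with array weights, Slc7a11 -0.063; and with median centring, Txn1 0.009 and Gclm 0.016. Against the 3, median centring gave Gpx7 0.012, Txn1 0.005, Txnip 0.029 and Gstm1 0.011, and array weights Gpx7 0.005 and Gstm1 0.010. With 1 array left out, values spanned 0 over all arrays for Gclc (-0.025 to 0.091), Gclm (-0.13 to 0.051) and Slc7a11 (-0.16 to 0.141), and against the 3 for Gpx7 (-0.173 to 0.088), Prdx1 (-0.001 to 0.07), Srxn1 (-0.053 to 0.162), Txn2 (-0.157 to 0.032), Txnip (-0.096 to 0.045), Nqo1 (-0.175 to 0.006), Hmox1 (-0.034 to 1.076), Gsta3 (-0.291 to 0.1) and Gstm1 (-0.082 to 0.017). No paired analysis was possible because the groups share no replicate numbers. The values carry no detection calls, so low levels such as those of Slc7a11 and Gpx2 were not separated from background.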
